A study of Arabidopsis thaliana with 6 samples.

Results

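The 41 genes described here make and break down tetrapyrroles, the ring pigments of the plant cell, and were taken by their gene codes from a count table of 32313 gene codes. By role, 12 belong to the trunk of the pathway that all tetrapyrroles share, 13 to the chlorophyll branch, 4 to the heme and bilin branch and 10 to chlorophyll breakdown, and 2 encode regulators of the pathway. RNA-seq counts came from Arabidopsis thaliana seedlings of ecotype Columbia, 3 libraries of the wild type (WT) and 3 of BP12-2, which the labels call a TOR knockdown line. TOR is the target of rapamycin kinase, a regulator of growth, and BP12 lines make the yeast protein FKBP12, with which rapamycin can bind plant TOR. Seedlings of both genotypes were moved at an age of 15 days after germination to medium of 0.5 MS strength holding rapamycin at 10 µg/ml, and stayed there for 3 days, so every library is from drug-treated plants. BP12-2 is 1 line, the promoter driving its transgene is not named in those labels, and seedlings on the solvent medium were not analysed here, so a difference that BP12-2 has without the drug cannot be told apart from one that the drug brings about in BP12-2. Nothing in the labels tells if replicate libraries stem from plants raised apart, so p-values measure the spread between these libraries, which may be technical. Values given in threes are those of replicates 1, 2 and 3, in that order.

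Plants start tetrapyrroles in the chloroplast from glutamate bound to transfer RNA, through 5-aminolevulinic acid, and the rings are closed and oxidised step by step to protoporphyrin IX. Insertion of magnesium leads to chlorophyll, and insertion of iron leads to heme, from which the bilin chromophore of the phytochrome light receptors is made. Free chlorophyll intermediates produce toxic singlet oxygen in light, and the pathway is controlled by light, by the circadian clock and by feedback from its intermediates. Chlorophyll is taken apart in senescing leaves in an ordered series of steps that ends in colourless products.

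Library totals ran from 6706610 to 17092773 counts. Green tissue was represented in every library: the summed level of 6 green tissue markers, among them RBCS1A and CAB2, lay between 20474 and 26986 CPM (counts scaled to library size and composition). The summed level of 8 root markers lay between 658 and 1265 CPM. Clock transcripts set BP12-2 replicate 1 and WT replicate 3 apart. The morning gene LHY was at 23.2 CPM in BP12-2 replicate 1 and 27.0 CPM in WT replicate 3, and between 139.6 and 193 CPM in the other 4 libraries, whereas the evening-phased gene PRR5 was at 26.2 and 37.5 CPM in those 2 libraries and between 2.01 and 3.16 CPM in the others. LHY and PRR5 had the largest such splits of the 5 morning and 6 evening genes listed. CCA1 and RVE8 were also lowest, and TOC1, GI, ELF4 and LUX also highest, in the 2 libraries. PRR7, listed with the morning genes, was high in them, at 212 and 208 CPM against 77.7 to 92.2 CPM. PRR9 lay between 42.6 and 52.7 CPM without such a split. BOA, listed as evening, was at 3.29, 1.65 and 2.56 CPM in BP12-2 and 1.29, 1.11 and 2.05 CPM in WT. These are whole-seedling libraries, so fewer cells of a type and less RNA per cell cannot be told apart. The column names carry the code L08 for all BP12-2 libraries and L07 for all WT libraries; no source used here explains it, and genotype and code cannot be told apart.

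Transcript levels along the pathway ran from 0.061 to 1262 CPM per kb of exon (mean of the 6 libraries), HCAR (AT1G04620) being the lowest and CRD1 (AT3G56940) the highest. HCAR had 0 to 5 counts per library, and whether the gene model or the counting removed its reads could not be checked, so its value may not be its transcript level. The 3 highest levels were in the chlorophyll branch. CRD1, a subunit of the cyclase that closes the fifth ring of chlorophyll, was at 1262 ± 65.4 CPM per kb (SD, n = 6). GUN5 (AT5G13630), the large H subunit of magnesium chelatase that binds protoporphyrin, was at 906 ± 130.5 CPM per kb, and CHLP (AT1G74470), the geranylgeranyl reductase that makes the phytol tail, was at 847 ± 44.5 CPM per kb. The highest in the trunk was HEMA1 (AT1G58290), the main glutamyl-tRNA reductase and the entry point of the pathway, at 306 ± 47.9 CPM per kb. The median over genes was 121 CPM per kb in the chlorophyll branch, 47.3 in the trunk, 24.1 in breakdown and 21.1 in the heme and bilin branch.

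The subunits of magnesium chelatase, the enzyme that commits protoporphyrin to chlorophyll, had very unequal transcript levels. Per kb of exon, GUN5 was between 31.4 and 59.1 times as high as CHLD (AT1G08520), the D subunit, over the 6 libraries, and CHLI1 (AT4G18480), the main ATPase subunit, was between 10.2 and 14.6 times as high as CHLD. CHLD itself was at 21.9 ± 3.36 CPM per kb (SD, n = 6). In 8 genes the level per kb of exon was below 10 CPM per kb, among them HEMD (AT2G26540), the uroporphyrinogen synthase of the trunk, at 9.72 ± 1.41 CPM per kb, and HY2 (AT3G09150), the phytochromobilin synthase, at 4.51 ± 0.60 CPM per kb (SD, n = 6).

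At several duplicated steps the copies had very unequal levels. Per kb of exon HEMA1 was between 19.8 and 29.8 times as high as HEMA2 (AT1G09940), the second reductase gene, over the 6 libraries. HEMG1 (AT4G01690), the plastid protoporphyrinogen oxidase, was between 28.2 and 38.1 times as high as its paralog HEMG2 (AT5G14220). CHLI1 was between 5.84 and 7.95 times as high as CHLI2 (AT5G45930). In breakdown, NYE1 (AT4G22920), the stay-green magnesium dechelatase, was between 4.98 and 13.4 times as high as NYE2 (AT4G11910), and CLH1 (AT1G19670) was between 11.9 and 22.7 times as high as CLH2 (AT5G43860), both chlorophyllase genes. In TAIR10.1, 71.5% of the exon length of CLH2 overlaps AT5G43870, so the level of CLH2 and its ratio to CLH1 are uncertain. GSA1 (AT5G63570) and GSA2 (AT3G48730), the aminomutases that form 5-aminolevulinic acid, were nearly level, with GSA1 between 0.87 and 0.96 of GSA2. The ferrochelatase gene FC2 (AT2G30390) was between 0.53 and 0.81 of FC1 (AT5G26030). HEME1 (AT3G14930), a uroporphyrinogen decarboxylase, was between 0.49 and 0.67 of HEME2 (AT2G40490). No gene of the 41 shared a 50-base word of its exons with another of them, but the counting mode is not given.

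**Figure D1:**
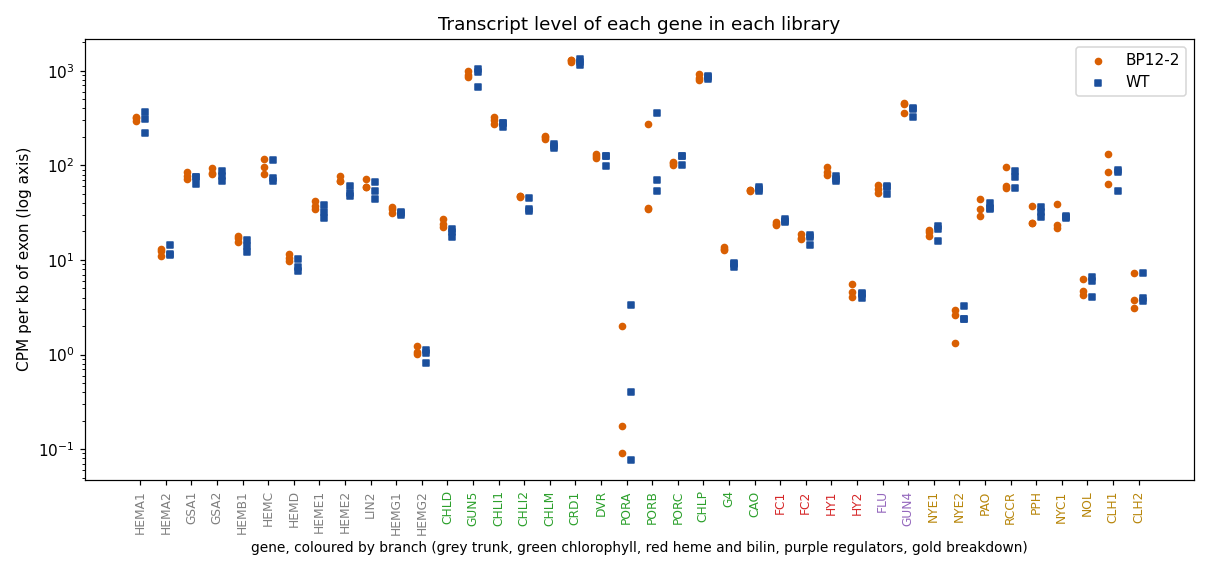
Level of each gene in CPM per kb of exon on a log axis, in each of the 3 BP12-2 libraries (circles) and 3 WT libraries (squares); HCAR, at 0 in 2 libraries, is not drawn. CRD1, GUN5 and CHLP lie highest, and PORA and PORB spread the most over libraries.

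PORA (AT5G54190), PORB (AT4G27440) and PORC (AT1G03630), the light-dependent oxidoreductases that reduce protochlorophyllide to chlorophyllide, differed in how far the libraries spread, widely for PORA and PORB and little for PORC. PORB was counted at 452, 57.0 and 58.2 CPM in BP12-2 and at 87.2, 115 and 587 CPM in WT. The gene lies on chromosome 4, 13725546 to 13727440 on the plus strand of TAIR10.1. The 2 high values were from BP12-2 replicate 1 and WT replicate 3, the libraries with low LHY and high PRR5, and the groups overlapped. PORA, the form that in Arabidopsis is best known from dark-grown seedlings, had 33, 1 and 5 counts in BP12-2 and 1, 9 and 93 counts in WT, with its 2 highest values in the same 2 libraries. PORC, known as the form of light-grown leaves, was counted at 191, 181 and 196 CPM in BP12-2 and at 179, 226 and 223 CPM in WT, with no such split. The order of the forms changed with the library: per kb of exon PORB was 2.57 and 2.87 times as high as PORC in BP12-2 replicate 1 and WT replicate 3, and between 0.32 and 0.55 of PORC in the other 4. The part of the clock difference in these values was not tested.

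**Figure D2:**
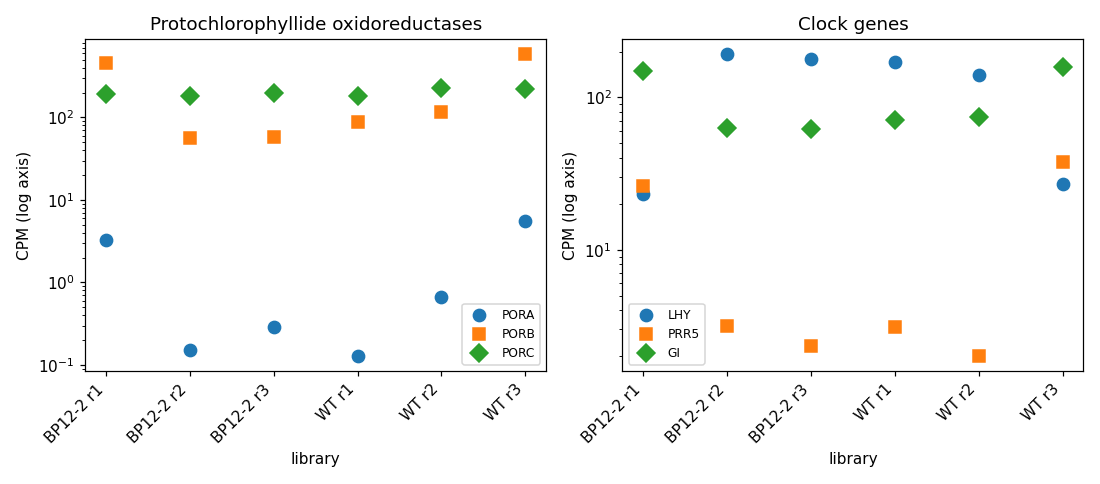
CPM on a log axis in each library (r1 to r3, replicates 1 to 3) of PORA, PORB and PORC (left) and of the clock genes LHY, PRR5 and GI (right). PORB at 452 and 587 CPM, PRR5 and GI are high, and LHY is low, in BP12-2 r1 and WT r3.

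The 250 bases before the annotated start of PORA, PORB, NYC1 (AT4G13250) and PORC are shown because the first 3 hold an evening element, a motif known from evening-phased Arabidopsis genes, and PORC holds none. The sequences were read 5′ to 3′ on the strand of the gene from the TAIR10.1 genome of RefSeq, and capitals mark the evening element, AAAATATCT. PORA lies on the minus strand of chromosome 5 (window chr5:21992815-21993064), PORB on the plus strand of chromosome 4 (chr4:13725296-13725545), NYC1 on the minus strand of chromosome 4 (chr4:7687007-7687256) and PORC on the plus strand of chromosome 1 (chr1:907273-907522).
PORA: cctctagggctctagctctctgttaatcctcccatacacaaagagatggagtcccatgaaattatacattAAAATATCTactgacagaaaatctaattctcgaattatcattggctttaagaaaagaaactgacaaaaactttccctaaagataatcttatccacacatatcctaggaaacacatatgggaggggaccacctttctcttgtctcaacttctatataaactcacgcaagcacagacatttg
PORB: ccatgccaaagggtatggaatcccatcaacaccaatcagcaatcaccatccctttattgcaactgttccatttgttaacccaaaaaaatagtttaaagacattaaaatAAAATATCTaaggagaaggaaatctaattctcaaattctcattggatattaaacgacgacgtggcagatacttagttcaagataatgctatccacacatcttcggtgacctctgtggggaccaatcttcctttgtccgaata
NYC1: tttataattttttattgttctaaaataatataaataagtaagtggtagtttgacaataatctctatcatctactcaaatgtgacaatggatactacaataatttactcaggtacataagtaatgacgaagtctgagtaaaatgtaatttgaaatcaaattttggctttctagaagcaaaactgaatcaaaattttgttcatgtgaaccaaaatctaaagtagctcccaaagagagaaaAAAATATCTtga
PORC: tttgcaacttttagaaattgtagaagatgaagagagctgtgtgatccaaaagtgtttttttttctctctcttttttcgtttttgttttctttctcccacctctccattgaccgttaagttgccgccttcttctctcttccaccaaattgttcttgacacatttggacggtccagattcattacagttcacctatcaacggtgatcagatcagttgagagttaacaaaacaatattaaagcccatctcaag

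The element lay 180 to 172 bases before the start in PORA, 142 to 134 bases before it in PORB and 12 to 4 bases before it in NYC1, in the orientation of the gene in each. Searched on both strands, it was found in 3 of the 41 windows (7.32%) and in 2.5% of the windows of 19403 tested genes. The G-box CACGTG was found in 7 of the 41 windows (17.1%) against 7.39% of all, those of HEMD, CRD1, CAO (AT1G44446), FC2, HY2, NYE2 and NOL (AT5G04900). The CCA1-binding site AAAAATCT was found in 5 of the 41 (12.2%) against 6.75% of all, those of HEMA2, CRD1, HY2, FLU (AT3G14110) and GUN4 (AT3G59400). None of the 3 motifs contains another, and a match describes the letters only.

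In other genes of the pathway, too, BP12-2 replicate 1 and WT replicate 3 held the highest or the lowest value of their group, at times by a small margin. In 16 of the 39 genes that passed a filter on low counts (41%), BP12-2 replicate 1 and WT replicate 3 were each the highest library of their group, against 19.5% of all 19436 genes tested. In 4 of the 39 (10.3%), namely HEMA1, GUN5, CHLM (AT4G25080) and GUN4, they were each the lowest, against 19.2% of all. These are ranks inside each group, whatever the size of the difference. CRD1 and CHLP counted as highest with all 6 libraries within 1.16-fold and 1.15-fold. CHLM counted as lowest, although BP12-2 replicate 1 at 328 CPM lay above every WT library. The libraries were singled out by clock transcripts with earlier results of these data known, and these shares are a description without a test. HEMC (AT5G08280), the porphobilinogen deaminase, was at 192, 158 and 134 CPM in BP12-2 and at 112, 121 and 187 CPM in WT, so the 2 libraries held the highest value of each group. HEMA1 was at 678, 759 and 733 CPM in BP12-2 and at 845, 713 and 512 CPM in WT, so they held the lowest of each group. GUN5 was at 4057, 4302 and 4709.9 CPM in BP12-2 and at 4943, 4631 and 3215 CPM in WT, again with the lowest value of each group in these 2 libraries.

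Between BP12-2 and WT, none of the 39 tested genes passed at an adjusted p under 0.05, so no step of the pathway was called higher or lower. The 2 genes outside the test were PORA and HCAR, the reductase that returns chlorophyll b breakdown products to the a series, which had between 0 and 5 counts per library. The test was edgeR's quasi-likelihood F test with Benjamini-Hochberg adjustment over 19436 genes, which called 0.00515% of them higher and 0.0617% lower in BP12-2. At an unadjusted p under 0.05, 6 of the 39 were higher (15.4%, against 9.03% of all genes) and 0 lower (against 9.20%). The same 6 genes, HEME2, CHLD, CHLI2, CHLM, G4 (AT3G51820) and HY1 (AT2G26670), were the ones whose BP12-2 values all lay above the WT values (15.4%, against 12.1% of all genes), and FC1 was the only one whose values all lay below (2.56%, against 12.2%). Both shares of higher genes lay a few percentage points above those of all genes, which says little about these 39. Both shares of lower genes lay below those of all genes (0 against 9.20%, and 2.56% against 12.2%). None of these shares was tested.

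G4, the chlorophyll synthase that attaches the phytol tail to chlorophyllide, stood closest to the threshold. It lies on chromosome 3, 19215930 to 19219128 on the minus strand of TAIR10.1. It was counted at 22.4, 23.8 and 22.2 CPM in BP12-2 and at 15.8, 15.98 and 14.5 CPM in WT. All BP12-2 values lay above all WT values, with little spread inside either group. The log2 fold change was 0.56 ± 0.10 (SE, n = 3 per group; edgeR adjusted p = 0.0793), a 1.47-fold higher level. It was called higher by the edgeR exact test (adjusted p = 0.00566) and by DESeq2 (adjusted p = 0.0217), and was the only gene of the 39 called by either. Those tests called 2.05% and 1.46% of all genes higher and 2.28% and 1.73% lower, and limma voom called 0.0154% higher, 0.0978% lower and 0 of the 39. Over 17 other settings the log2 fold change of G4 lay between 0.51 and 0.59 and its adjusted p between 0.00566 and 0.299, with the highest value without BP12-2 replicate 3.

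In the chlorophyll branch the next largest positive differences were in CHLD, CHLM and CHLI2. CHLM, the methyltransferase that follows magnesium chelatase, was at 328, 349.8 and 344 CPM in BP12-2 and at 288, 270.5 and 259 CPM in WT (log2 fold change 0.32 ± 0.09, SE; edgeR adjusted p = 0.142). CHLD was at 71.8, 63.0 and 58.8 CPM in BP12-2 and at 46.5, 51.7 and 56.1 CPM in WT (0.33 ± 0.11; adjusted p = 0.200). CHLI2, the minor ATPase subunit gene, was at 72.5, 72.2 and 71.5 CPM in BP12-2 and at 50.1, 53.7 and 69.0 CPM in WT (0.32 ± 0.13; adjusted p = 0.248). In each of these genes the groups did not overlap, but the highest WT library came within a few CPM of the lowest BP12-2 library for CHLD and CHLI2. The 3 most abundant transcripts had small differences, with log2 fold changes of 0.05 ± 0.11 for CRD1, 0.01 ± 0.11 for CHLP and 0.03 ± 0.18 for GUN5 (SE, n = 3 per group). DVR (AT5G18660), the divinyl reductase, CHLI1 and CAO, the chlorophyll b synthase, had log2 fold changes of 0.11, 0.16 and -0.05, and PORC of -0.14.

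For PORB the genotype difference depended on which libraries were set side by side. Over all 6 libraries its log2 fold change was -0.48 ± 0.98 (SE; edgeR adjusted p = 0.839), and it was -2.20 without BP12-2 replicate 1 and 0.91 without WT replicate 3. Within the pair that stood apart in clock transcripts BP12-2 had 452 and WT 587 CPM, and within the other 4 libraries BP12-2 had 57.0 and 58.2 and WT 87.2 and 115 CPM, so BP12-2 was the lower in both. With a term marking the 2 libraries, PORB was called lower, with a log2 fold change of -0.66 ± 0.13 (SE; edgeR adjusted p = 0.0375). In the 4 libraries alone it was -0.81 ± 0.14 (adjusted p = 0.0720). Both the term and the choice of 4 libraries were taken from transcripts of these same libraries. The p-values with them do not allow for that choice. With that term G4 (0.56 ± 0.09; adjusted p = 0.0251) and CHLM (0.32 ± 0.07; adjusted p = 0.0477) were called higher, and these 3 were the only genes of the 39 called, where 2.52% of all genes were called higher and 2.59% lower.

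Differences in the trunk were small and mostly positive. Of 12 tested genes 11 had positive log2 fold changes, with a median of 0.17, where 50.8% of all tested genes were positive and their median was 0.01. HEME2 (chromosome 2, 16912805 to 16915202 on the plus strand) had the largest difference, at 107, 119 and 107 CPM in BP12-2 and at 73.8, 79.0 and 94.2 CPM in WT. All BP12-2 values lay above all WT values (log2 fold change 0.43 ± 0.12, SE; edgeR adjusted p = 0.133). HEMD was at 19.8, 16.8 and 17.8 CPM in BP12-2 and at 13.1, 14.5 and 17.6 CPM in WT (0.26 ± 0.14; adjusted p = 0.370), and HEMB1 (AT1G69740), the aminolevulinate dehydratase, at 33.1, 38.1 and 36.0 and at 25.4, 30.0 and 34.0 CPM (0.25 ± 0.12; adjusted p = 0.326). In both, WT replicate 3 reached the BP12-2 values and WT replicate 1 was the lowest. At the entry step HEMA1 differed by 0.07 ± 0.18 and HEMA2 by -0.01 ± 0.12 on the log2 scale. HEME1, LIN2 (AT1G03475), the coproporphyrinogen oxidase, and HEMC had log2 fold changes of 0.22, 0.20 and 0.20, and GSA1, GSA2, HEMG1 and HEMG2 of 0.13, 0.15, 0.14 and 0.14.

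In the heme and bilin branch HY1 and FC1 were the genes whose groups did not overlap, in opposite directions. HY1, the heme oxygenase that opens the ring of heme, was at 137, 119.6 and 113 CPM in BP12-2 and at 102, 97.1 and 109.7 CPM in WT (log2 fold change 0.26 ± 0.11, SE; edgeR adjusted p = 0.256). FC1, a ferrochelatase, was at 49.1, 48.3 and 51.6 CPM in BP12-2 and at 55.6, 53.7 and 51.7 CPM in WT (-0.11 ± 0.08; adjusted p = 0.531). For FC1 the highest BP12-2 library and the lowest WT library nearly touched. FC2 and HY2 differed by 0.07 ± 0.12 and 0.13 ± 0.16, with overlapping groups.

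For the regulators FLU and GUN4 the groups overlapped. FLU, the feedback inhibitor of HEMA1 whose loss lets protochlorophyllide build up in the dark, was at 65.4, 79.7 and 72.0 CPM in BP12-2 and at 63.4, 74.5 and 77.9 CPM in WT (log2 fold change 0.01 ± 0.12, SE; edgeR adjusted p = 0.991). GUN4, which binds porphyrins and activates magnesium chelatase, was at 463, 588 and 577 CPM in BP12-2 and at 513, 521 and 423 CPM in WT (0.16 ± 0.14; adjusted p = 0.585). In the TAIR10.1 annotation 73.0% of the exon length of GUN4 overlaps AT3G59410 on the opposite strand, which was counted at 7.39 to 8.88 CPM, and 71.5% of CLH2 overlaps AT5G43870, at 8.72 to 12.2 CPM. Use of strand in counting is not given, so reads of these pairs cannot be told apart.

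**Figure D3:**
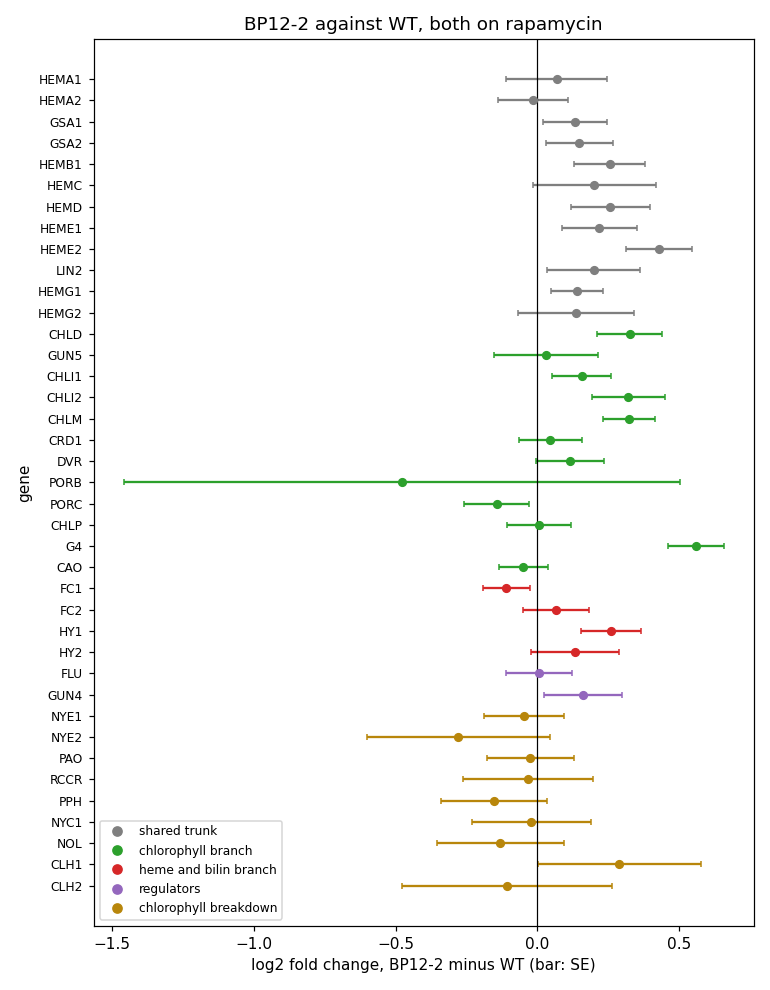
Log2 fold change of BP12-2 over WT with its SE for the 39 tested genes, coloured by branch. G4 lies highest at 0.56, and 11 of 12 trunk genes lie above 0. Of 9 breakdown genes 8 lie below 0, NYE2 the farthest at -0.28. The bar of PORB, with an SE of 0.98, is the widest.

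Breakdown genes showed no shift between the genotypes that exceeded the spread between libraries. Of 9 tested genes 8 had negative log2 fold changes, but the median was -0.05 and depended on single libraries. It was -0.31 without BP12-2 replicate 1, -0.18 without WT replicate 1, 0.08 without BP12-2 replicate 2 and 0.06 without BP12-2 replicate 3, and -0.22 in the 4 libraries alike in clock transcripts. In 6 of the 9 (66.7%, against 19.5% of all genes tested) BP12-2 replicate 1 and WT replicate 3 were each the highest library of their group. These were NYE2, RCCR (AT4G37000), PPH (AT5G13800), NYC1, NOL and CLH2, for NYC1 by a narrow margin in WT, and the share was not tested. NYC1, the chlorophyll b reductase that starts the breakdown of chlorophyll b, was at 81.0, 45.4 and 48.7 CPM in BP12-2 and at 57.7, 59.2 and 60.8 CPM in WT, so BP12-2 lay both above and below WT. NOL, its partner, was at 8.88, 6.02 and 6.63 CPM in BP12-2 and at 5.67, 8.32 and 9.28 CPM in WT. PPH, the pheophytinase that removes phytol, was at 86.2, 56.0 and 56.1 CPM in BP12-2 and at 64.8, 72.8 and 82.8 CPM in WT (log2 fold change -0.15 ± 0.19, SE; edgeR adjusted p = 0.709).

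PAO (AT3G44880), the oxygenase that opens the chlorophyll ring, was at 88.7, 59.4 and 69.9 CPM in BP12-2 and at 69.2, 81.5 and 71.5 CPM in WT. RCCR, the reductase that acts on its product, was at 145, 87.1 and 91.8 CPM in BP12-2 and at 86.0, 113 and 132 CPM in WT. In both genes BP12-2 replicate 1 exceeded every WT library, while BP12-2 replicate 2 lay below every WT library for PAO and just above the lowest of them for RCCR. The stay-green gene NYE1 was at 36.3, 34.6 and 31.4 CPM in BP12-2 and at 37.6, 39.9 and 28.3 CPM in WT (log2 fold change -0.05 ± 0.14, SE), and NYE2 had 39, 23 and 30 counts in BP12-2 and 24, 42 and 70 counts in WT. CLH1, a chlorophyllase gene also known to respond to coronatine, was at 192, 92.7 and 124 CPM in BP12-2 and at 78.4, 131 and 125 CPM in WT. It was the breakdown gene with a positive log2 fold change (0.29 ± 0.29, SE; edgeR adjusted p = 0.644), and its groups overlapped.

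Set side by side without a test, breakdown varied more from library to library than the branches of synthesis. Relative to the mean of the 6 libraries on the log2 scale, the median of the breakdown genes was 0.33, -0.29 and -0.22 in BP12-2 and -0.09, 0.08 and 0.27 in WT. The median of the chlorophyll branch was 0.08, 0.07 and 0.05 in BP12-2 and -0.15, -0.03 and 0.01 in WT, so it was above 0 in every BP12-2 library. The difference of breakdown minus chlorophyll branch was 0.24, -0.36 and -0.26 in BP12-2 and 0.06, 0.12 and 0.26 in WT. BP12-2 replicates 2 and 3 lay below all WT libraries, and BP12-2 replicate 1 lay inside the range of WT. The trunk had medians of 0.06, 0.11 and 0.04 in BP12-2 and -0.25, -0.11 and 0.08 in WT, where WT replicate 3 reached the BP12-2 values. The heme and bilin branch had -0.05, 0.12 and 0.00 in BP12-2 and -0.16, 0.00 and 0.00 in WT.

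**Figure D4:**
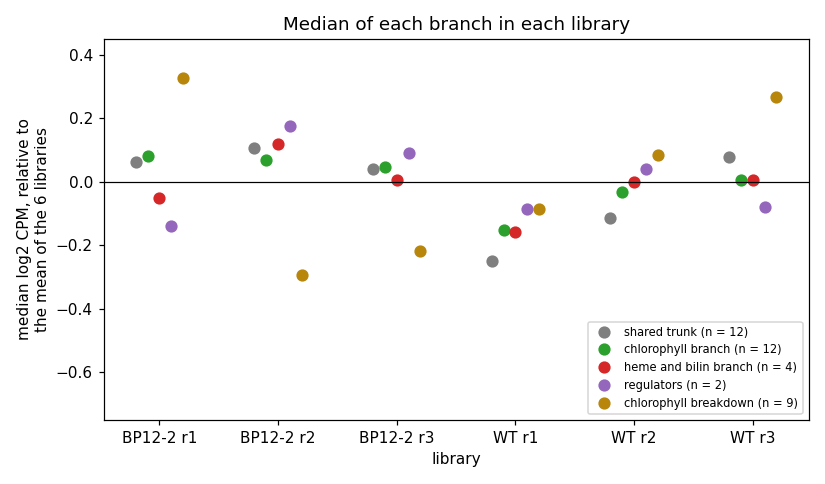
Median log2 CPM of the tested genes of each branch relative to the mean of the 6 libraries, for each library (r1 to r3, replicates 1 to 3). Breakdown genes are at 0.33 in BP12-2 r1 and 0.27 in WT r3 and lowest in BP12-2 r2 and r3, while the trunk is lowest in WT r1 at -0.25.

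Over all of synthesis, that is every tested gene outside breakdown, 25 of 30 had positive log2 fold changes with a median of 0.14. Beside these values stand those of green tissue markers: all 6 had positive log2 fold changes (median 0.32), and 0 passed the edgeR test. The groups did not overlap in 3 of the 6 (50%, against 12.1% of all genes), and overlapped for RBCS1A, PSBO1 and GAPA. The summed level of the 6 was between 26666 and 26986 CPM in BP12-2 and between 20474 and 21966 CPM in WT. Of 8 root markers 7 had positive log2 fold changes (median 0.47), and 0 passed the edgeR test. In 2 of the 8 BP12-2 lay above WT without overlap (25%, against 12.1% of all genes). The summed level of the 8 was between 1070.0 and 1265 CPM in BP12-2 and between 658 and 828 CPM in WT. That sum was mostly PYK10, a root beta-glucosidase, and the other 7 root markers summed to 106, 130.3 and 118 CPM in BP12-2 and 130.3, 70.5 and 78.2 CPM in WT, which overlap. The part of either marker list in the result was not tested. Of 10 senescence markers 9 had negative log2 fold changes (median -0.37), and 0 passed the edgeR test, DESeq2, the exact test or limma voom. At an unadjusted p under 0.05, 0 were higher and 4 lower (40%, against 9.20% of all genes). The groups did not overlap in 2 that were lower (20%, against 12.2% of all genes). These were WRKY53 (log2 fold change -0.54 ± 0.14, SE; edgeR adjusted p = 0.128) and WRKY6 (-0.27 ± 0.10; adjusted p = 0.216). SAG13 and SAG29, also among the 4, overlapped and were highest in WT replicate 2. The summed level of the 10 was between 388 and 590 CPM in BP12-2 and between 534 and 884 CPM in WT. XTH24 was its largest part, at 177 to 382 CPM in BP12-2 and 240 to 441 CPM in WT. SAG12, the marker of developmental senescence, stayed between 0.06 and 2.41 CPM in all libraries.

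**Figure D5:**
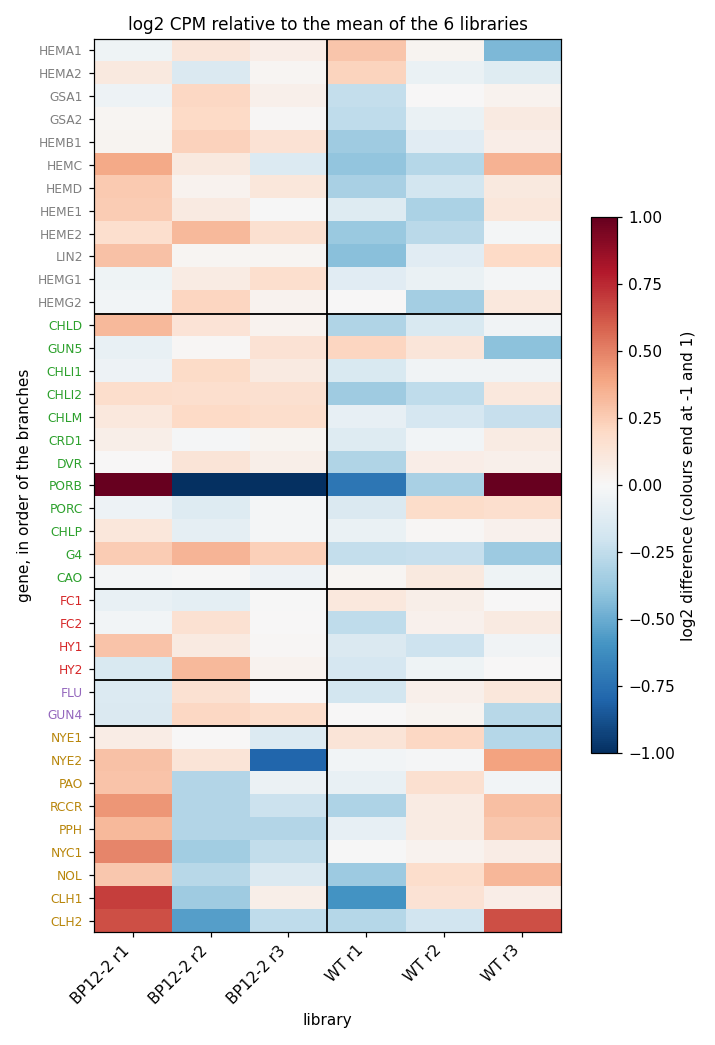
Heat map of log2 CPM relative to the mean of the 6 libraries for the 39 tested genes, with BP12-2 on the left and WT on the right and lines between the branches. The row of PORB is off the scale at both ends, most breakdown rows are high in BP12-2 r1, and the row of G4 is above 0 in BP12-2 and below 0 in WT.

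Among 23 further genes of tetrapyrrole metabolism, 20 passed the filter and 0 passed the edgeR test, at a median log2 fold change of 0.06. DESeq2, the edgeR exact test and limma voom also called 0. At an unadjusted p under 0.05, 3 of the 20 were higher (15%, against 9.03% of all genes) and 2 lower (10%, against 9.20%). The groups did not overlap in 5 genes that were higher (25%, against 12.1% of all genes) and 2 that were lower (10%, against 12.2%), which were named after their values were seen. The higher ones included GBP, the protein that binds glutamyl-tRNA reductase, at 35.6, 50.1 and 45.9 CPM in BP12-2 and at 33.1, 35.1 and 35.3 CPM in WT. LIL3:1 and LIL3:2, light-harvesting-like proteins that hold geranylgeranyl reductase at the membrane, had log2 fold changes of 0.31 ± 0.11 and 0.18 ± 0.09 (SE). CPP1, a chaperone-like protein of POR, had 0.19 ± 0.10, and AT5G38520 had 0.38 ± 0.10. The lower ones were the phytyl ester synthase genes PES1 and PES2, which store phytol freed from chlorophyll. PES1 was at 16.6, 16.2 and 10.3 CPM in BP12-2 and at 21.3, 26.8 and 17.3 CPM in WT (log2 fold change -0.62 ± 0.23, SE; edgeR adjusted p = 0.217), and PES2 at 7.58, 9.33 and 7.33 and at 10.6, 16.6 and 9.34 CPM (-0.61 ± 0.24; adjusted p = 0.235). In both genes WT replicate 2 was the highest library.

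Of 17 transcriptional regulators of greening and of chlorophyll loss, 0 passed the edgeR test, DESeq2, the exact test or limma voom. At an unadjusted p under 0.05 there were 0 higher (against 9.03% of all genes) and 2 lower (11.8%, against 9.20%), a share near that of all genes. The groups did not overlap in 1 that was higher (5.88%, against 12.1%) and 3 that were lower (17.6%, against 12.2%). GLK1 and GLK2, activators of chlorophyll synthesis genes, had log2 fold changes of 0.14 ± 0.13 and 0.28 ± 0.17 (SE), with overlapping groups. The groups did not overlap for CGA1, a cytokinin-responsive GATA factor of greening, at 6.59, 14.4 and 10.5 CPM in BP12-2 and at 18.3, 15.5 and 15.2 CPM in WT (-0.65 ± 0.25; edgeR adjusted p = 0.230). The same held for FHY3 and FAR1, factors of far-red light signalling known to activate HEMB1, at -0.22 ± 0.10 and -0.21 ± 0.09, and in the other direction for GUN1, a plastid signalling protein, at 0.13 ± 0.09. ORE1, a senescence regulator, was at 23.3, 14.4 and 12.7 CPM in BP12-2 and at 20.2, 20.7 and 25.8 CPM in WT (-0.41 ± 0.23).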

How the data were processed

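Per the labels and the series' design text, total RNA of seedlings was purified with an RNeasy kit, and the authors aligned paired-end Illumina reads with Bowtie on TAIR9 and made counts per gene with HTSeq. No source used here names versions, counting mode or strand setting. The deposited table holds these counts as whole numbers, without normalization. Sample titles gave group and replicate number. The smallest chi-square per degree of freedom between any 2 libraries was 10.9, above sampling noise.

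Genes were kept by edgeR's filterByExpr (count minimum 10, total minimum 15), which left 19436. CPM values carry TMM factors (0.972 to 1.02), and log2 CPM uses a prior count of 2. Genotype was tested alone by edgeR's quasi-likelihood F test (Benjamini-Hochberg adjusted p under 0.05); an SE is the log2 fold change over the root of F. The tools were DESeq2 1.42.0, limma 3.58.1 and edgeR 4.0.16 under R 4.3.3. The fits were run on simulated counts with known fold changes, as a check of their sign and size only. That simulation held no split like that of BP12-2 replicate 1 and WT replicate 3. Gene models, exon lengths, overlaps and promoter windows came from TAIR10.1, matched by gene code (31786 of 32313); it is not the build the authors counted on. All 41 genes and all 75 other listed genes matched.

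The genes, lists, tests, alternatives and naming rule were chosen with earlier results of these data known. The naming rule gave, per branch, the gene with the highest CPM per kb and the 3 largest log2 fold changes at a mean of at least 5 CPM, all paralogs and both regulators; other genes given in full, and non-member genes beyond the 3 largest per list, were chosen after their values were seen. Alternatives were other scaling factors, filters and tests, a replicate block, a term for BP12-2 replicate 1 and WT replicate 3, the other 4 libraries, and each library left out in turn.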

Additional observations from a re-analysis of the deposited data

How the results depend on the processing

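The main test called 13 genes in all and 0 of the 39 tested here. The term for 2 libraries and the choice of 4 were taken from these same data, and calls with them do not allow for that. All genes called numbered 56 with no filter, 620 by DESeq2, 841 by the edgeR exact test, 22 by limma voom, 992 with the term for 2 libraries and 38 in the 4 libraries, and ran from 0 to 56 with each library left out in turn, 56 without WT replicate 1 and 0 without BP12-2 replicate 3. Of the genes described here, 1 was called higher by DESeq2 and 1 by the exact test (G4 in both), 2 were called higher and 1 lower with the term for 2 libraries, and 0 in every leave-one-out setting. The median log2 fold change of the chlorophyll branch was 0.08, with 0.14 in the 4 libraries and 0.0043 to 0.17 with a library left out. That of the heme and bilin branch was 0.10, with 0.19 in the 4 libraries, and that of the trunk was 0.17, with 0.14 to 0.30 with a library left out (0.30 without WT replicate 3). That of breakdown was -0.05, with -0.22 in the 4 libraries and -0.31 to 0.08 with a library left out. Within-group deviations of same-numbered libraries correlated at -0.31, 0.06 and -0.30. The split of BP12-2 replicate 1 and WT replicate 3 enters these values, so they cannot tell if same-numbered libraries shared a batch. With the replicate block 0 genes passed in all. Of 661 combinations of gene and setting, 652 kept their side of the threshold without a sign change beyond 1 SE. Genes below about 5 CPM, such as NYE2, HEMG2 and PORA, rest on few counts in the shallower libraries.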
